A study of Mus musculus with 8 samples.

Results

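The liver disposes of ammonia through the urea cycle. Nags makes N-acetylglutamate, the obligate activator of Cps1. Cps1, the mitochondrial carbamoyl phosphate synthetase, carries out the entry step, and Otc joins carbamoyl phosphate to ornithine to give citrulline. Ass1 and Asl build and then cleave argininosuccinate, and Arg1 splits arginine into urea and ornithine. Glucocorticoids and glucagon are known to raise the enzymes of this pathway in liver when protein is used as fuel. The glucocorticoid receptor (GR) is the transcription factor that glucocorticoids activate, and FOXO1 is a forkhead transcription factor that is held out of the nucleus by insulin signalling. Binding of both factors was described here around the starts of these 6 genes, among 21938 protein-coding genes.

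Chromatin immunoprecipitation with sequencing (ChIP-seq) had been carried out for GR in livers of adult male C57BL/6J mice, collected at lights-off, with 2 libraries in each of 3 groups. The ctrl. mice ate at night in the final week. The cal. res. mice had been brought gradually to a lasting restriction of food, given at lights-off. The CORT mice ate at night and received corticosterone, the main glucocorticoid of mice, by daily intraperitoneal injection shortly before lights-off. The sources used here do not say whether the ctrl. livers used for ChIP came from vehicle-injected mice. A single list of FOXO1 peaks came from cal. res. livers, with 2 libraries merged before peak calling, so that it has no replicate spread and no ctrl. or CORT counterpart. Overlapping rows of the GR lists were joined into sites, and a site belonged to a gene when its centre lay within 50 kb of the gene start (mm10, GENCODE M21). A site counted as held by a group only if each library of that group showed a peak in it. Levels are given as the percentile of fold enrichment within the list of that library, where 100 is the strongest row, since fold enrichment itself is not comparable between libraries.

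The GR lists held between 13667 rows (ctrl. replicate 2) and 48060 rows (CORT replicate 2), and the length of a list touches every count of sites below. Row names began with letters in ctrl. replicate 2 and in both cal. res. libraries, and with digits in ctrl. replicate 1 and in both CORT libraries. What this naming marks is not stated, and cal. res. and CORT cannot be told apart from it. Comparisons within a name series are therefore given at some places, and the values of single libraries are printed for most named sites. With 2 libraries against 2, the smallest two-sided exact permutation p is 0.333, so no difference between groups could reach 0.05. The methods give 2 biological replicates for ChIP, but the labels tie no library to an animal. The p-values measure only the spread between these libraries. In whole liver, binding in fewer cells and weaker binding per cell cannot be told apart, and the lists hold no marker by which the tissue could be checked.

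Near the 6 genes there were 72 GR sites, and FOXO1 had 20 rows, all 20 of them at a GR site, as were 93.4% of all 8394 FOXO1 rows. Asl had 22 sites and Cps1 had 19, and 99.3% and 98.3% of protein-coding genes had fewer. Most of the Asl sites lay nearer to the start of Crcp, Tpst1 or Gusb. Of the Cps1 sites, 10 lay inside its broadly covered gene body, so such counts also depend on how broad coverage splits into sites. Arg1 had 14 sites, Nags 9, Ass1 5 and Otc 3. The median was 11.5 sites per gene, beside 3 over all protein-coding genes. All 3 groups held 21 of the 72 sites (29.2%), beside 15.7% of all 51431 sites. FOXO1 overlapped 17 of the 72 (23.6%), beside 13.9% of all sites, and 15 of the 21 sites held by all 3 groups, beside 50.7% of such sites genome-wide. A site held by all 3 groups lay near 5 of the 6 genes, Otc being the exception, beside 37.9% of all genes, and a FOXO1-overlapping site lay near 6 of 6, beside 31.2% of all genes.

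Cps1, Ass1 and Arg1 each had at least 1 site at or above the 95th percentile in all 6 GR lists. There were 5 such sites, 2 near Cps1, 2 near Ass1 and 1 near Arg1, out of 72, beside 0.725% of all sites. Of all protein-coding genes, 2.39% had such a site within 50 kb. All 5 lay upstream of the gene, between -24.3 and -5.47 kb from the start, and all 5 overlapped FOXO1.

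**Figure D1:**
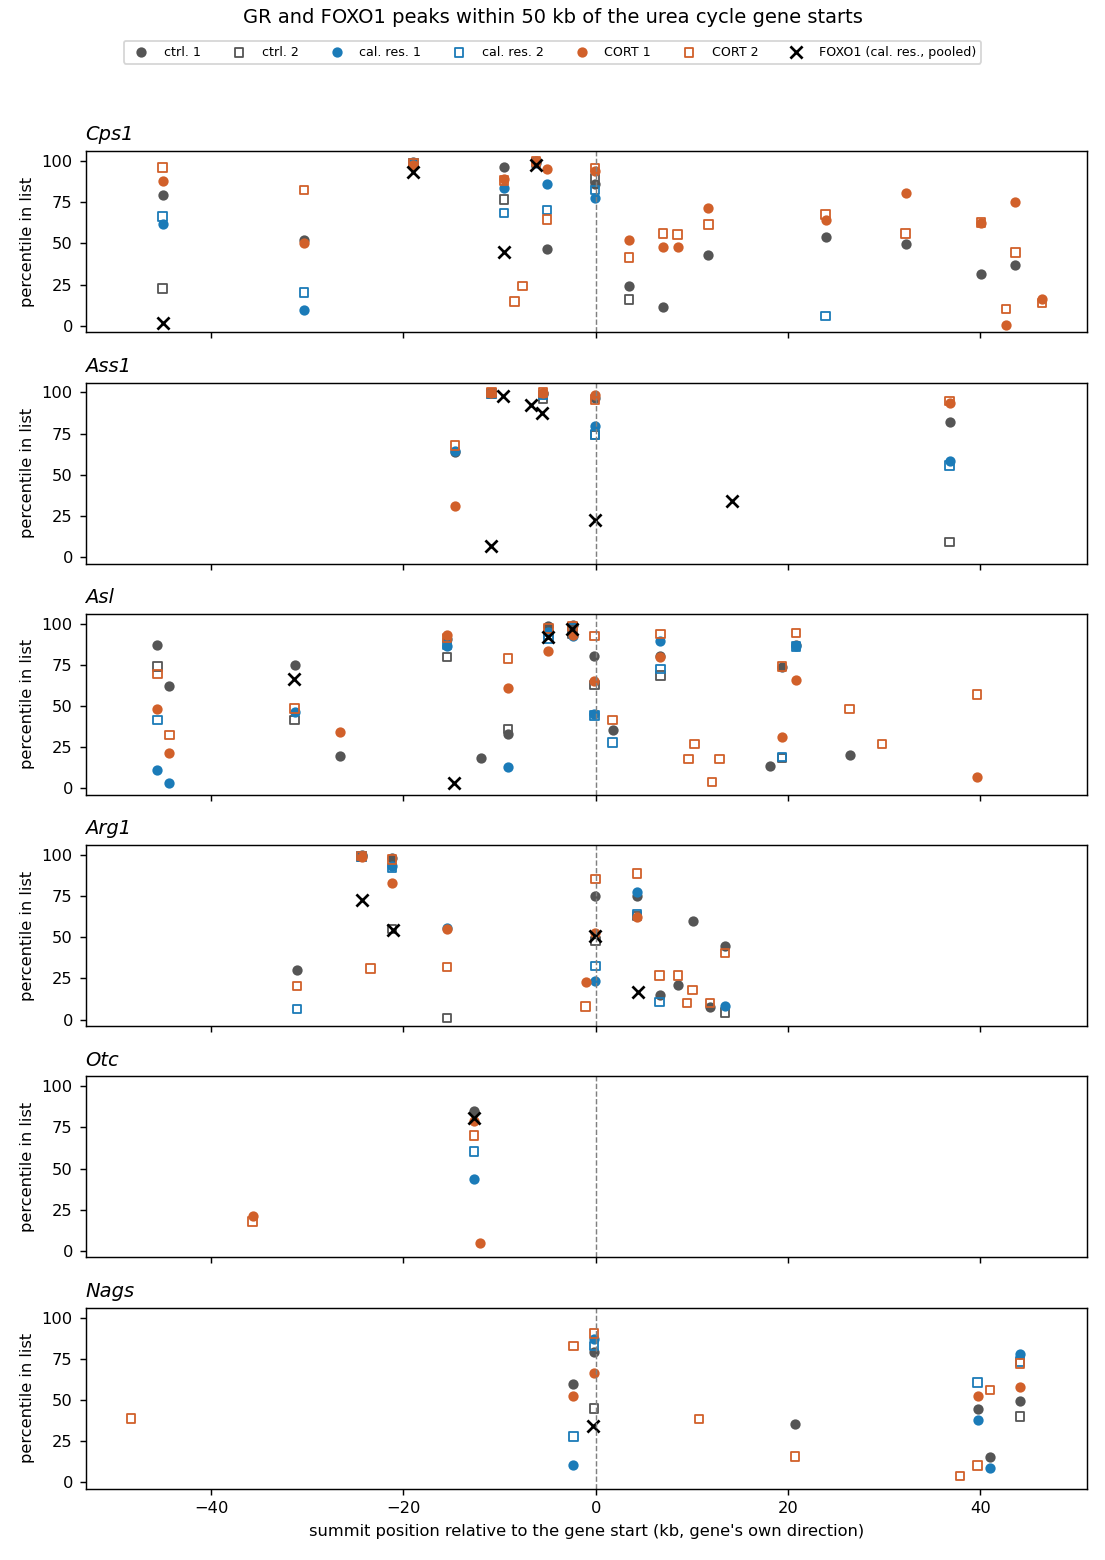
Percentile in its list (y axis) of every GR peak and FOXO1 row against the position of the site's strongest summit relative to the gene start in kb (x axis), with filled circles for replicate 1, open squares for replicate 2 and crosses for FOXO1. Upstream sites of Cps1, Ass1 and Arg1 stand at 95 or above in all 6 lists, while Otc has a single site with peaks in 5 lists.

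The leading site of each gene was the one with the highest mean percentile over the 6 lists. Its sequence is shown for each gene as the 200 bp around the summit in the list where it ranked highest, together with the second Cps1 site, because that window was the only 1 of the 72 with a full GR palindrome. The strand is the plus strand of mm10, read from GRCm38.p6. Capitals mark matches, on either strand, to the GR palindrome (GNACANNNTGTNC), the GR hexamer (AGAACA, which can overlap the palindrome), the forkhead motif (TGTTTAC or TATTTAC) and the C/EBP motif (TTGCNNAA). The windows are chr1:67116713-67116912 and chr1:67103969-67104168 (Cps1), chr2:31459260-31459459 (Ass1), chr5:130031532-130031731 (Asl), chr10:24951721-24951920 (Arg1), chrX:10239544-10239743 (Otc) and chr11:102145250-102145449 (Nags).
Cps1 leading site: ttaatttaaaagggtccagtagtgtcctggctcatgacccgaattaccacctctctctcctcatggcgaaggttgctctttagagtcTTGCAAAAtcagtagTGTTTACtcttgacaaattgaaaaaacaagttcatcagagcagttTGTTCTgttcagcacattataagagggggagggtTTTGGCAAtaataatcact
Cps1 second site: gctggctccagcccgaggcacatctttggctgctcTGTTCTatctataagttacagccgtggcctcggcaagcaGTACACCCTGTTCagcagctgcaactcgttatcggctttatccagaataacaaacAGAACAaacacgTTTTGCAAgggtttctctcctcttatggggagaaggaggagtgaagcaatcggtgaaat
Ass1 leading site: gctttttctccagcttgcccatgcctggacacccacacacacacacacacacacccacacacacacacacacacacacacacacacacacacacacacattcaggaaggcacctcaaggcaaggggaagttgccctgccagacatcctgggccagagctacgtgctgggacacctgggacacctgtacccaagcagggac
Asl leading site: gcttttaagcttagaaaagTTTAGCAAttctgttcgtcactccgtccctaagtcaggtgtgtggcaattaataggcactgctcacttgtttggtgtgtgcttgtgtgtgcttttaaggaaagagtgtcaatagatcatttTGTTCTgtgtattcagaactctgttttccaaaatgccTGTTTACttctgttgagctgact
Arg1 leading site: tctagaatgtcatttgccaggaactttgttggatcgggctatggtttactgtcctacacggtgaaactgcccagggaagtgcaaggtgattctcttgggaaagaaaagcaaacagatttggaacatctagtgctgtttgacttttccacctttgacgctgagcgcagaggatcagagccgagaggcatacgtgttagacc
Otc leading site: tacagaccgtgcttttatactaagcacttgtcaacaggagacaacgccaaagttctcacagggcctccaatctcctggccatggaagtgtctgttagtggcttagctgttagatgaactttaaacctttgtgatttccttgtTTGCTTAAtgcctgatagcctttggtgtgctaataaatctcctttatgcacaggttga
Nags leading site: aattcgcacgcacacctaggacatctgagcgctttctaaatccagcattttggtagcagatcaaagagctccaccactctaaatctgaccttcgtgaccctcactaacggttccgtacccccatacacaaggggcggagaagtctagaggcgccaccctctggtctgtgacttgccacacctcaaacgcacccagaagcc

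A GR hexamer and a forkhead match stood together in the windows of the Cps1 and Asl leading sites. They were separated by 38 bases at Cps1 and by 31 bases at Asl. Both windows also held C/EBP matches, and the Otc window held a C/EBP match alone. Ass1, Arg1 and Nags had no match in these windows. Both GR hexamer and forkhead matches stood in 1.84% of the 51428 windows searched, and in 4.21% of the 7130 windows of sites that overlapped FOXO1. Over all 72 windows, the GR hexamer was found in 14 (18.4% of all sites), the C/EBP motif in 10 (15.0%), the STAT motif in 7 (8.15%), the forkhead motif in 5 (8.70%), the E-box in 2 (4.74%), and the GR palindrome (1.89%), the HNF4 motif (1.47%) and the CRE (0.659%) in 1 each. STAT was searched as TTCNNNGAA, HNF4 as CAAAGTCCA, the CRE, the cyclic AMP response element, as TGACGTCA and the E-box as CACGTG, on both strands. These are matches of letters only. The GR hexamer share of the member windows was 19.4%, near that of all windows.

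Nags (ENSMUSG00000048217.11) lies on the plus strand of chromosome 11 from 102145513 to 102149477. Its leading site was its own promoter, with the strongest summit at -0.163 kb. The site stood at percentiles 78.9 and 44.7 for ctrl., 87.1 and 82.8 for cal. res., and 66.1 and 90.3 for CORT. Both cal. res. values were above both ctrl. values, taken over the whole site, with means of 85.0 ± 3.03 against 61.8 ± 24.1 (SD, n = 2 each), a difference of 23.2 (exact permutation p = 0.333, Benjamini-Hochberg adjusted p = 1 over 18 tests). That is the smallest two-sided p possible, and the ctrl. values themselves were farther apart than the group means. CORT overlapped both other groups.

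The Nags promoter site held a pair of summits. One lay just before the start and the other inside the gene. In CORT replicate 2 the folds were 14.6 at -0.163 kb and 13.8 at 0.775 kb, and in ctrl. replicate 1 they were 9.22 and 8.85. The summit inside the gene was the stronger in both cal. res. libraries, with folds of 12.2 against 4.20 in replicate 1 and 8.72 against 6.01 in replicate 2, and in CORT replicate 1, with 8.30 against 7.20. Ctrl. replicate 2 had no summit at the second position. The cal. res. values given for the site are thus those of the inner summit, and both ctrl. values those of a summit at the start. At the strongest summit within 0.5 kb of the start, the percentiles were 78.9 and 44.7 for ctrl., 23.2 and 64.6 for cal. res. and 58.1 and 90.3 for CORT, so all groups overlapped and the difference between cal. res. and ctrl. turned to -17.9 (exact permutation p = 0.667). FOXO1 had a row at -0.227 kb, at percentile 34.1 of its list. A further Nags-window site in all 6 lists lay at 44.1 kb, at the start of G6pc3, a glucose-6-phosphatase subunit gene, with percentiles of 49.4 and 40.0 for ctrl., 77.7 and 73.3 for cal. res. and 58.1 and 72.2 for CORT. At this site both cal. res. and both CORT values were above ctrl., and both cal. res. values were above CORT.

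Cps1 (ENSMUSG00000025991.8) lies on the plus strand of chromosome 1 from 67123026 to 67231259. The leading site was intergenic at -6.21 kb and stood at percentiles 99.8 and 98.9 for ctrl., 99.02 and 99.4 for cal. res. and 99.4 and 99.7 for CORT. The groups overlapped. It ranked between place 93 and place 244 of its list in every library, with folds between 19.0 and 71.5 and between 76 and 243 fragments stacked at the summit, as rebuilt from fold and p-value. Its 6 summits lay within 36 bp. FOXO1 had its second strongest row of these windows there, at percentile 97.5 and place 215, and the FOXO1 summit was 3 to 26 bp from the GR summits. Differences between group means were -0.14 (cal. res. minus ctrl.), 0.19 (CORT minus ctrl.) and -0.33 (cal. res. minus CORT), with exact permutation p of 1, 1 and 0.667.

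The second Cps1 site, at -19.0 kb, had percentiles of 99.5 and 98.98 for ctrl., 98.4 and 98.8 for cal. res. and 97.8 and 98.9 for CORT. Both other groups were below both ctrl. values, by less than 2 percentile points in each library. FOXO1 was at percentile 93.4 there, with its summit 0 to 14 bp from those of GR. The GR palindrome began 26 bp before the GR summit. Further upstream sites in all 6 lists lay at -9.51 kb, between percentiles 68.5 and 96.2, and at -45.0 kb, between 22.5 and 96.0. Both overlapped FOXO1, at percentiles 44.6 and 1.63.

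The Cps1 promoter site, at -0.09 kb, stood at percentiles 86.2 and 89.5 for ctrl., 77.7 and 82.6 for cal. res. and 94.2 and 95.9 for CORT. The 3 groups did not overlap, with cal. res. lowest and CORT highest. The exact permutation p was 0.333 in each pair. Within the letters series, cal. res. was below ctrl. replicate 2, and within the digits series both CORT libraries were above ctrl. replicate 1. No FOXO1 row overlapped this site.

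Otc (ENSMUSG00000031173.13), on the plus strand of chromosome X from 10252305 to 10321024, had no GR row on its gene body in any of the 6 lists. Its leading site, intergenic at -12.7 kb, stood at 84.8 for ctrl. replicate 1, 43.9 and 60.5 for cal. res. and 79.1 and 70.1 for CORT, and had no peak in ctrl. replicate 2, the shortest list. FOXO1 was at percentile 80.8 there, 9 to 46 bp from the GR summits. The mean was 52.2 ± 11.8 in cal. res. and 74.6 ± 6.33 in CORT, a difference of -22.4 (exact permutation p = 0.333, adjusted p = 1). Between 14 and 24 fragments were stacked at its summits. With the missing peak as 0, cal. res. was 9.80 above ctrl. and CORT 32.2 above. Leaving that library out turned both differences, to -32.6 and -10.1.

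Ass1 (ENSMUSG00000076441.9), on the plus strand of chromosome 2 from 31470207 to 31520672, had the leading site with the highest mean percentile of the 6 genes. This site at -10.8 kb, in an intron of the neighbouring gene Hmcn2, stood at percentiles 99.7 and 99.3 for ctrl., 99.4 and 99.1 for cal. res. and 99.7 and 99.8 for CORT. It ranked between place 81 and place 184. Over the whole site, both CORT values were above both ctrl. values, by 0.31 on average, and above both cal. res. values, by 0.51 (exact permutation p = 0.333, adjusted p = 1). The 3-group exact permutation p of the whole site was 0.267. The values of ctrl. replicate 2 and cal. res. replicate 1 came from a summit near -9.70 kb, the others from the one at -10.8 kb. At -9.70 kb alone the percentiles were 99.4 and 99.3 for ctrl., 99.4 and 99.1 for cal. res. and 98.7 and 99.5 for CORT. The groups overlapped there, whereas at -10.8 kb alone both CORT values remained above both other groups.

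The upstream region of Ass1 was a cluster with 4 main summits. At -10.8 kb the GR folds were 44.3 and 10.7 for ctrl., 39.6 and 38.2 for cal. res. and 60.7 and 86.8 for CORT. This summit fell in a run of the dinucleotide CA of 44 bases, visible in the printed window; 1.31% of all sites had a run of at least 30 bases. FOXO1 was weak there, with a fold of 4.28 and percentile 6.58. At -9.70 kb the GR folds were 37.9 and 22.6 for ctrl., 56.2 and 37.2 for cal. res. and 35.5 and 57.8 for CORT. FOXO1 had its strongest row of all 6 windows there, with a fold of 19.1, percentile 98.0 and place 165. In ctrl. replicate 2 and cal. res. replicate 1 this second summit was the higher of the pair, whereas in both CORT libraries, ctrl. replicate 1 and cal. res. replicate 2 the first was.

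The -9.70 kb summit of Ass1 lay in a UTR of Hmcn2, so its sequence is not printed. Its window held a GR hexamer on the plus strand and a forkhead match on the minus strand, with 38 bases between them. Read along the forkhead match, order and spacing were those of the Cps1 leading site. Among the 51428 windows searched, 266 pairs had the hexamer downstream of a forkhead match on the opposite strand, and 2 of these, the Cps1 pair included, had a spacing of 38 bases. That search took the strongest summit of each site, which for Ass1 is the one at -10.8 kb, so the -9.70 kb window was not among them. The spacing was noticed after the windows had been read and is given as a description. Besides this window, 3 of the 72 windows held both motifs, those of the Cps1 and Asl leading sites and that of the Arg1 site at -21.2 kb. FOXO1 stood at percentile 98.0 at the Ass1 summit, at 97.5 and 96.8 at the Cps1 and Asl sites, and at 54.3 at the Arg1 site. The Ass1 window was searched because FOXO1 had its strongest row there, so its 98.0 was fixed by that choice. High FOXO1 levels also occurred at sites without a forkhead match in the window, such as the second Cps1 site (93.4) and the Asl site at -4.91 kb (92.0).

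The other pair of Ass1 summits formed the second site, at -5.47 kb, with percentiles of 99.8 and 96.1 for ctrl., 98.8 and 98.3 for cal. res. and 99.8 and 99.9 for CORT. Over the whole site both CORT values were above both cal. res. values, but the values came from different summits. That of cal. res. replicate 2 came from -6.69 kb, and those of ctrl. from -5.655 and -5.608 kb. Ctrl. replicate 1 and both cal. res. libraries had separate summits near -5.66 and -5.45 kb. Near -5.45 kb ctrl. replicate 1 stood at 99.6, cal. res. replicate 2 at 97.6, and ctrl. replicate 2 had no row. Both CORT values were above both cal. res. values there. Near -6.72 kb the percentiles were 98.8 and 95.2 for ctrl., 98.6 and 98.3 for cal. res. and 93.7 and 97.3 for CORT. There both cal. res. values were above both CORT values. FOXO1 had rows at -6.72 and -5.55 kb, at percentiles 92.4 and 87.6. The Ass1 promoter belonged to a site 27076 bp wide, with its strongest summit at -0.07 kb, percentiles of 96.7 and 74.1 for ctrl., 79.7 and 74.3 for cal. res. and 98.2 and 95.8 for CORT, and FOXO1 at percentile 22.3. A further FOXO1 row in that site, at 14.2 kb inside the gene, was at percentile 34.1. A last site in all 6 lists, 27651 bp wide with a summit at 36.8 kb, covered the rest of the gene. It stood between 9.08 and 58.4 in the letters series and between 82.0 and 94.9 in the digits series. These levels are not all of 1 place. The cal. res. replicate 2 value came from 49.9 kb, and ctrl. replicate 2 had no row at 36.8 kb.

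**Figure D2:**
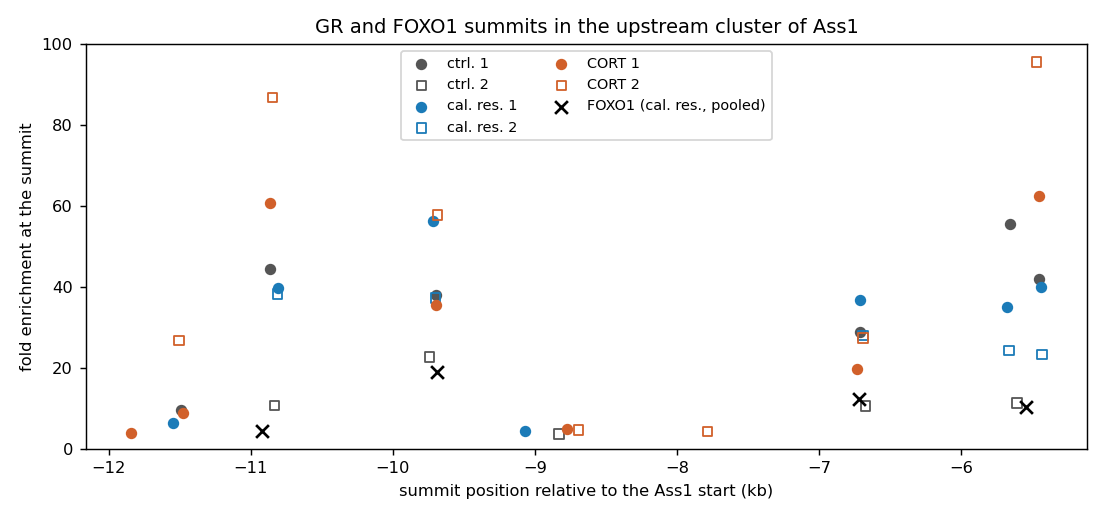
Fold enrichment at each GR summit (y axis, circles for replicate 1 and open squares for replicate 2) and at each FOXO1 summit (crosses) against distance from the Ass1 start in kb (x axis). GR rises at 4 places, while FOXO1 has a fold of 4.28 at -10.9 kb and 19.1 at -9.69 kb; folds are relative to each library's own background.

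Asl (ENSMUSG00000025533.15) lies on the minus strand of chromosome 5 from 130011258 to 130029247, head to head with Crcp. Its upstream sites lie inside Crcp or, farthest out, inside Tpst1, and cannot be assigned to a gene. The leading site at -2.38 kb, in an intron of Crcp, stood at 99.3 and 93.9 for ctrl., 92.6 and 97.4 for cal. res. and 93.1 and 98.4 for CORT. The groups overlapped, and the exact permutation p was 0.667 in each pair. FOXO1 was at percentile 96.8, 7 to 105 bp from the GR summits. A site at -4.91 kb ranged from 83.6 in CORT replicate 1 to 98.8 in ctrl. replicate 1, with all 6 summits within 29 bp and FOXO1 at percentile 92.0.

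Other sites of the Asl window were more distant. At -15.5 kb, in Crcp, GR stood between 79.7 and 93.4, with both CORT values above both other groups over the whole site. The CORT replicate 1 value came from a summit at -15.5 kb, the others from summits near -14.7 kb. At the latter position CORT replicate 1 stood at 83.3 and the groups overlapped. FOXO1 had its row near -14.8 kb, at percentile 3.48. In the Asl intron at 6.72 kb the groups overlapped, between 68.5 and 93.7. At -45.6 kb, in an intron of Tpst1, a tyrosylprotein sulfotransferase gene, the values were 87.2 and 74.1 for ctrl., 11.0 and 41.4 for cal. res. and 48.4 and 69.5 for CORT, so cal. res. was lowest and ctrl. highest. At -31.3 kb, in a UTR of Crcp, FOXO1 was at percentile 66.1 and GR had peaks in both ctrl. libraries (75.2 and 41.4), in cal. res. replicate 1 (46.6) and in CORT replicate 2 (48.4).

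The shared Asl and Crcp promoter, at -0.14 kb from the Asl start, stood at 80.4 and 62.6 for ctrl., 45.4 and 44.3 for cal. res. and 65.2 and 92.7 for CORT. Both cal. res. values were below all others.

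Arg1 (ENSMUSG00000019987.9) lies on the minus strand of chromosome 10 from 24915221 to 24927484. Its leading site, intergenic at -24.3 kb, stood at 99.8 and 98.998 for ctrl., 99.1 and 99.01 for cal. res. and 98.6 and 99.5 for CORT, and its 6 summits lay within 13 bp of each other. The groups overlapped, with differences of -0.32 (cal. res. minus ctrl.), -0.34 (CORT minus ctrl.) and 0.03 (cal. res. minus CORT), and exact permutation p of 1, 0.667 and 1. FOXO1 was at percentile 72.8, 8 to 21 bp away. A neighbour at -21.2 kb had 98.5 and 55.0 for ctrl., 93.1 and 92.2 for cal. res. and 83.2 and 97.4 for CORT, with FOXO1 at 54.3. In the Arg1 intron at 4.28 kb the values lay between 62.5 and 88.8, with FOXO1 at 17.02.

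The Arg1 promoter site, at -0.04 kb, stood at 75.1 and 47.7 for ctrl., 23.2 and 32.6 for cal. res. and 52.7 and 85.4 for CORT, with FOXO1 at percentile 50.6. The value of ctrl. replicate 2 was that of a summit inside the gene, at 1.33 kb, and this library had no row at the start itself. At the start, both cal. res. values were below ctrl. replicate 1 and both CORT libraries, and above ctrl. replicate 2, where no peak was listed.

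Promoter sites were found at most of the genes. A GR site in all 6 lists had its summit within 1 kb of the start at 5 of the 6 genes, all but Otc, beside 12.4% of all protein-coding genes. All 6 lists had a summit within 0.5 kb of the start at 4 genes, Cps1, Ass1, Asl and Nags, beside 10.6% of all genes, and the levels of the strongest such summit were compared there. Both cal. res. libraries were below both ctrl. libraries at 2 of the 4, Cps1 and Asl, and above at 0, beside 40.6% and 3.45% of the 2320 genes with such summits. CORT was above ctrl. at 1, Cps1, and below at 0, beside 41.6% and 4.57%. Cal. res. was below CORT at 3, Cps1, Ass1 and Asl, and above at 0, beside 74.2% and 1.47%. Within the letters series cal. res. was below ctrl. replicate 2 at Cps1 and Asl, above it at Ass1, and on both sides of it at Nags. Within the digits series CORT was above ctrl. replicate 1 at Cps1 and on both sides of it at Ass1, Asl and Nags. These start levels were compared after the values had been seen.

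**Figure D3:**
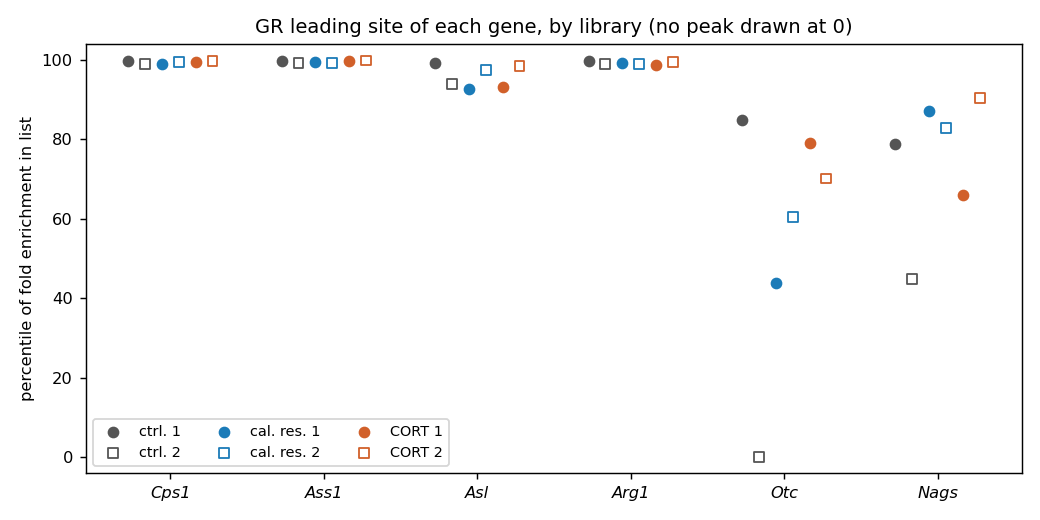
Percentile of fold enrichment (y axis) of the leading GR site of each gene (x axis) in each library, with a missing peak drawn at 0. Cps1, Ass1 and Arg1 stand above 98 in every library, Asl above 92, and Otc and Nags are lower and spread more widely.

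Over the 21 sites held by all 3 groups, the order of the groups was near that of the whole series. Each level is that of the site's highest row, which can lie at different summits in different libraries. Both cal. res. values were above both ctrl. values at 2 sites and below at 5, beside 11.1% and 20.6% of all 8097 such sites. CORT was above ctrl. at 6 and below at 2, beside 25.8% and 5.24%. Cal. res. was above CORT at 1 and below at 11, beside 8.73% and 45.4%. The median differences were -0.20, 7.09 and -4.70 percentile points, beside 0.12, 7.48 and -6.19 over all such sites. Within the letters series, both cal. res. libraries were above ctrl. replicate 2 at 12 of the 21 sites and below at 5, beside 57.8% and 24.2%. Within the digits series, both CORT libraries were above ctrl. replicate 1 at 6 and below at 8, beside 29.4% and 39.3%. The median CORT difference was 7.09 over both series and -0.25 within the digits series, so its direction depends on ctrl. replicate 2. The median difference between cal. res. and ctrl. likewise turned, from -0.20 over both series to 1.15 within the letters series, where it was 6.66 over all such sites.

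Numbers of sites moved with list length. Ctrl. held 26 of the 72 sites, cal. res. 27 and CORT 45. Single libraries had peaks at 52 and 27 sites for ctrl., 34 and 32 for cal. res. and 47 and 68 for CORT. Cal. res. held 6 sites that ctrl. did not, beside 11.5% of all sites, and all 6 had a peak in ctrl. replicate 1. CORT held 21 that ctrl. did not, beside 24.3% of all sites, and 14 of them had a peak in ctrl. replicate 1. When every library was reduced to its 12458 regions with the smallest p-values, ctrl. held 23 sites, cal. res. 20 and CORT 20, so the larger number under CORT was not present in lists of equal length.

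**Figure D4:**
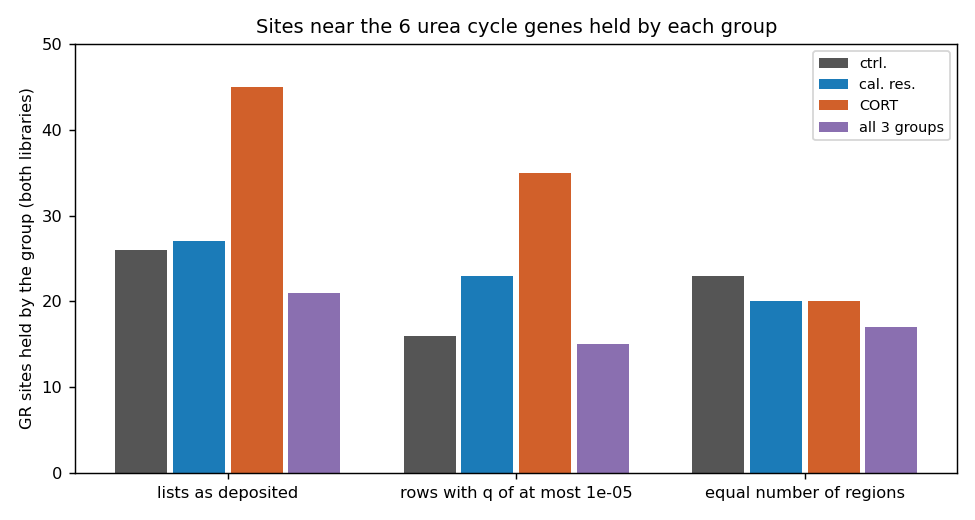
Number of GR sites near the 6 genes (y axis) held by both libraries of ctrl., cal. res. or CORT, or by all 3 groups, in the lists as deposited, in rows with q of at most 1e-05 and in lists of equal length (x axis). The CORT bar falls from 45 to 35 and to 20.

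No site had peaks in both ctrl. or both cal. res. libraries and nowhere else, beside 0.161% and 0.119% of all sites. Both CORT libraries and no other library had a peak at 6 sites, or 8.33% of the 72, beside 3.04% of all sites, and none stood above percentile 57.1. They were 3 sites inside Cps1, at 8.54 kb (47.9 and 55.3), 42.7 kb (0.348 and 10.1) and 46.4 kb (16.2 and 13.7), a Gusb exon in the Asl window (7.03 and 57.1), the -1.05 kb region of Arg1 (22.9 and 8.01) and the start of Rpgr in the Otc window (21.2 and 18.0). The 3 Cps1 sites lay next to sites with peaks in ctrl. replicate 1, whose GR rows covered 51.5% of that gene body. They are pieces of the broad coverage described below, and the share of 8.33% includes them. CORT replicate 2 alone had a peak at 12 sites, or 16.7%, beside 16.9% of all sites.

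The bodies of Cps1 and Ass1 were covered by broad GR enrichment in some libraries. GR rows covered 51.5% of the Cps1 gene body in ctrl. replicate 1 and 2.13% in ctrl. replicate 2, 0.374% and 1.32% for cal. res., and 90.1% and 75.2% for CORT. Of the Ass1 body they covered 90.0% and 10.8% for ctrl., 3.06% and 15.6% for cal. res. and 62.9% and 96.8% for CORT. Arg1 had 56.2% and 9.55% for ctrl., 3.86% and 9.95% for cal. res. and 15.2% and 45.6% for CORT. The 3 libraries of the digits series were above the 3 of the letters series at each of these genes, so the ctrl. libraries stood on both sides. Asl and Nags had the same order. At Asl the lowest value of the digits series was 12.1% and the highest of the letters series 11.3%. Among other genes of nitrogen handling, this order was also found at Slc25a15, Glul, Gls2, Glud1, Got2, Slc7a2 and Aqp9. At Glul the lowest digits value was 18.2% and the highest letters value 15.1%. It was not found at Slc25a13, Oat, Got1 and Car5a, while Arg2 and Rhbg had no coverage. The share of all protein-coding genes with this order was not computed, so it is not shown to be particular to urea cycle genes.

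Coverage of this extent was reached by few genes. The 99th percentile of all protein-coding genes lay between 14.5% and 16.7% in the letters series and between 33.2% and 52.2% in the digits series, and the Cps1 and Ass1 coverage was above it in every library of the digits series. For Arg1 this held in ctrl. replicate 1 only. Nags reached 60.1% in CORT replicate 2, also above it, and 29.9% and 23.3% in the other libraries of that series. The Cps1 coverage in CORT replicate 1 was above that of 99.9% of genes. All 10 Cps1 sites inside the gene and within 50 kb of its start had peaks in both CORT libraries, and 7 in ctrl. replicate 1. The gene reaches beyond that window. Ctrl. replicate 2 and cal. res. replicate 2 had a peak at 1 each and cal. res. replicate 1 at none. FOXO1, profiled in cal. res. livers only, had no row on the Cps1 body, of which GR rows covered 0.374% and 1.32% there. In lists of equal length the Cps1 coverage was 72.8% in CORT replicate 1, 2.77% in CORT replicate 2 and 2.67% in ctrl. replicate 1, and between 0.209% and 2.13% in the letters series. That of Ass1 was 23.0%, 96.8% and 44.7%, and between 0.888% and 10.8% in the letters series. That of Arg1 was 4.57%, 16.7% and 34.5%, against 3.86% to 9.55% in the letters series, so the order of the series was lost at Arg1 and kept at the other 4 genes. With q of at most 0.01 or 1e-05 it was kept at all 5. Coverage of gene bodies was examined after these sites had been seen. Cal. res. and CORT each lie in a single name series, so that series and treatment cannot be told apart for them.

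**Figure D5:**
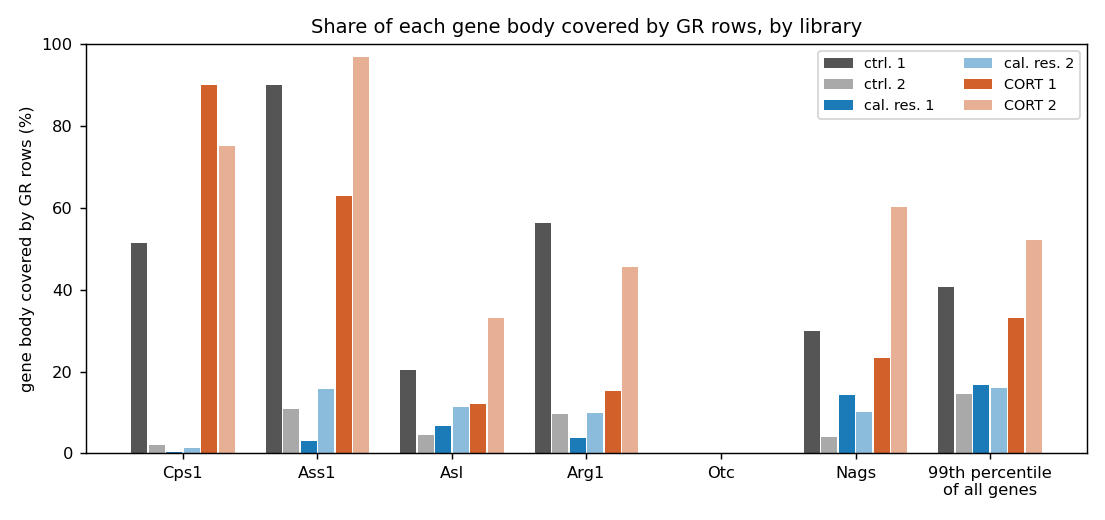
Share of the gene body covered by GR rows in percent (y axis) for each gene and for the 99th percentile of all protein-coding genes (x axis), with 1 bar per library. Ctrl. replicate 1 and both CORT libraries, whose row names begin with digits, carry the 3 tallest bars at each gene but Otc, which is at 0 in all libraries. These bars lie between 51.5% and 96.8% at Cps1 and Ass1 and reach down to 15.2% at Arg1.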

How the data were processed

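The data were 6 GR ChIP-seq peak lists from mouse liver, 2 for each of ctrl., cal. res. and CORT, and 1 FOXO1 list from 2 merged cal. res. libraries. Groups were read from the sample titles. Per the methods, the authors aligned paired reads to mm10 with BWA, filtered out duplicates (Picard) and reads with several alignments (Bamtools), called peaks with MACS2 and removed blacklisted regions with bedtools. Largest q-values were 0.0994 to 0.0998 in the GR lists and 9.84e-06 in the FOXO1 list. The use of an input library is not given in the sources used here. Fold enrichment, as deposited, is the ratio by which the pileup at a summit exceeds the background around it, and is comparable within a list only. The authors deposited each p-value and q-value of the caller as -log10. Reads were not analysed here, so depth is unknown. The summit pileup was rebuilt from the fold and p-value of each of the 260 member peaks, under fold = (pileup + 1) / (background + 1), with a largest error of 0.000555 in -log10 p. It covers counting depth at the summit only.

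Rows sharing at least 1 bp were merged into sites. The percentile of a site in a list was that of its highest row, and 0 where there was no row. Named were all sites in all 6 lists, leading sites, sites with FOXO1 and sites of a single group, of all 6 genes. The members, gene lists and tests were chosen with earlier results of these data known. Leading sites were compared with two-sided exact permutation tests, adjusted by Benjamini-Hochberg over 18 tests. Genes came from the basic set of GENCODE M21, and sequence from GRCm38.p6, in whose chromosome lengths all peaks lay. Motifs were searched on both strands in 200 bp around each site's strongest summit. The alternatives were q of at most 0.01 or 1e-05, lists of equal length, windows of 25 and 100 kb, holding by either library, 50% overlap, percentiles of -log10 p, absent peaks left out, the replicate block and leaving out each library. For gene body coverage the first 3 of these were added after seeing the data, as was the level at summits within 0.5 kb of a gene start. Functions were tested on simulated lists. Software comprised pysam 0.24.0, matplotlib 3.10.9, SciPy 1.17.1, pandas 2.3.3, NumPy 2.4.6 and Python 3.11.15.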

Additional observations from a re-analysis of the deposited data

How the results depend on the processing

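Over all alternatives, 76 of 84 counts of sites stayed within 1.5 times the reported count. Of the differences of leading sites, 190 of 219 kept their direction. These totals include cases that could not change, so they overstate the stability. The replicate block alters no difference, and neither does leaving out a library that belongs to neither group compared. Leaving out absent peaks can alter only the Otc differences from ctrl. A changed overlap rule for FOXO1 can alter only the count of sites with FOXO1. No exact permutation p between a pair of groups was below 0.333 under any alternative, and none over the 3 groups was below 0.0667, the smallest it can give, reached for Ass1 in lists of equal length and for Otc without ctrl. replicate 1. Counts that moved further were the sites held by ctrl. with q of at most 1e-05 (16), the total (43) and those held by CORT (20) in lists of equal length, and those held by ctrl. (53), CORT (70) and all 3 groups (39) when either library sufficed. Leaving out 1 library at a time, ctrl. held 26 to 52 sites (52 without ctrl. replicate 2), CORT 45 to 75 (75 without CORT replicate 1), cal. res. 27 to 34 and all 3 groups 21 to 27, the total was 72 to 80 and FOXO1 overlapped 17 or 18. Held counts in such runs rest on 1 library of that group.

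Differences that turned with q of at most 1e-05 were cal. res. minus ctrl. at Cps1 (0.11) and Otc (-13.7) and CORT minus ctrl. at Asl (0.51). In lists of equal length they were CORT minus ctrl. at Cps1 (-0.21), cal. res. minus CORT at Asl (0.88), and cal. res. minus ctrl. (-8.87) and CORT minus ctrl. (-2.14) at Otc. With the strongest summit within 0.5 kb of the Nags start, an alternative added after seeing the data, cal. res. minus ctrl. (-17.9) and cal. res. minus CORT (-30.3) turned at Nags. With absent peaks left out, both Otc differences from ctrl. turned (-32.6 and -10.1). Leaving out single libraries, cal. res. minus ctrl. ranged from -0.58 to 0.30 at Cps1, -4.31 to 1.15 at Asl, -0.71 to 0.081 at Arg1 and -32.6 to 52.2 at Otc. CORT minus ctrl. ranged from -0.25 to 0.64 at Cps1, -3.55 to 1.91 at Asl, -0.77 to 0.084 at Arg1, -10.1 to 74.6 at Otc and -0.69 to 33.4 at Nags. Cal. res. minus CORT ranged from -3.40 to 1.89 at Asl, -0.40 to 0.45 at Arg1 and -5.30 to 18.9 at Nags. Every Ass1 difference, and cal. res. minus CORT at Cps1 and Otc and cal. res. minus ctrl. at Nags, kept their direction in these runs. The level of a single summit was an alternative for Nags only. At the -9.70 kb summit of the Ass1 leading site alone, the groups overlapped. The cause was not tested.

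With the replicate block, which pairs libraries by number alone, the differences are those reported (for example 23.2 for cal. res. minus ctrl. at Nags), and the exact permutation p was 0.5, the smallest it can give, in 7 of 18 comparisons. List length, which differs between libraries, limits all counts.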

Other observations

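The 13 other genes of nitrogen handling in the list were Slc25a15, Slc25a13, Arg2, Oat, Glul, Gls2, Glud1, Got1, Got2, Car5a, Slc7a2, Aqp9 and Rhbg. Among them are the mitochondrial ornithine and aspartate carriers (Slc25a15 and Slc25a13), glutamine synthetase (Glul) and glutamate dehydrogenase (Glud1). They had 183 GR sites within 50 kb. All 3 groups held 46 of these (25.1%), and FOXO1 overlapped 32 (17.5%). The median was 14 sites per gene, with 29 near Glud1, 24 near Slc7a2 and 1 near Rhbg. Sites at or above the 95th percentile in all 6 lists numbered 4, 1 each near Slc25a13, Glud1, Got1 and Car5a. Ctrl. held 50 of the 183 sites, cal. res. 64 and CORT 87. Of the Glud1 body, GR rows covered 4.49% and 0.953% for ctrl., 0.759% and 0.588% for cal. res. and 7.72% and 23.9% for CORT.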
